A study of Mus musculus with 34 samples.

Results

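The exons described here are the longer microexons of the mouse splicing table, that is every exon event with a length of 16 to 27 nt. Of 160750 exon events, 1159 had such a length, and 435 of them were measured in cells given the solvent alone. Splicing is given as percent spliced in (PSI), the percentage of transcripts of a gene that contain the exon, and an exon counts as measured in a library when its coverage score, the third score of the deposited quality string, is SOK, OK or LOW. In DMSO an exon needed 2 of the 3 libraries to pass, and in a compound with 2 libraries at least 1. The 435 measured events are 433 distinct exons of 404 genes, because the exons of Senp6 (21 nt) and Rrp1b (20 nt) are each listed by 2 events, and 349 of the 435 were measured with every compound.

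The libraries are polyA+ RNA-seq of N2A (Neuro-2A), a mouse neuroblastoma cell line, treated for 24 h in 0.4% DMSO, and every library analysed here comes from that line. There are 34 libraries. DMSO alone has 3, labelled A, B and C, the histone deacetylase (HDAC) inhibitors Vorinostat, CI-994, BRD6688 and BRD4884 have 2 each, and each of the other 23 compounds has 1. The compounds were picked in a screen with a luciferase reporter built on the 21-nt microexon of Mef2d, and the study classes 17 as activators and 10 as inhibitors of its inclusion. For sequencing, the study then chose 27 by structural diversity and by large effects on endogenous microexons, measured by RT-PCR. An exon of Mast2 was among those measured. High shares of microexon calls are therefore not independent of how the compounds were chosen. Activators are the 4 HDAC inhibitors, the kinase inhibitors A-443654 and NVP-AEW-541, the inhibitors of the MAPK signalling pathway and its receptors Trametinib, Crenolanib, SCH-772984 and GNF-5837, and the drug-like molecules BTB12021, RDR00572, S02045, RH01954, BTB13120, BTBS00065 and SEW06315. Inhibitors are 5-azacytidine, MK-1775, AW00693, SPB00858, JFD00822, T5635931, T5758020, T5963258, T5985871 and OICR.24K.Dissimilar_18_P14. BRD6688 and BRD4884 were used at the same concentration, whereas most other compounds were used at different ones. The study's methods call the repeated libraries biological replicates, but neither they nor the labels say how the cultures were kept apart, and p-values measure only the spread between these libraries.

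Microexons are very short exons that are included mainly in neurons, where they insert or change a few amino acids in proteins of vesicle transport, the cytoskeleton, adhesion and signalling. Because they are too short for the usual recognition of an exon from both ends, their inclusion depends on dedicated activators, above all the neural Ser/Arg-repeat proteins SRRM4 and SRRM3, which bind just upstream of the exon. An exon whose length is a multiple of 3 keeps the reading frame whether it is included or skipped, whereas any other length shifts it.

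The exons on which the results turn are printed first, so that the length and the bases behind each value can be seen. Sequences are written 5′ to 3′ on the transcribed strand, the microexon in capitals and, in lower case, the 10 nt of the neighbouring exon on each side. Positions are in mm9, the build of the splicing table. The bases come from GENCODE vM21 transcripts, in which an exon with the same length and the same flanking intron lengths was found for 346 of the 435 measured exons.
Mef2d, 21 nt, chr3:87965703-87965723, plus strand: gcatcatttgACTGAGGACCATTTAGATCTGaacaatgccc
Snx14, 27 nt, chr9:88295561-88295587, minus strand: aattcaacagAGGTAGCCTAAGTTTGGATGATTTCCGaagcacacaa
Synj1, 24 nt, chr16:90971809-90971832, minus strand: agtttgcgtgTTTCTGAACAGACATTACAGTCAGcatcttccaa
Clasp2, 24 nt, chr9:113787868-113787891, plus strand: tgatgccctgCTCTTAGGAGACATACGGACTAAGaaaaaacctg
Eif4g1, 21 nt, chr16:20674859-20674879, plus strand: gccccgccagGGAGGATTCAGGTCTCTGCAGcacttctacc
Picalm, 24 nt, chr7:97342783-97342806, plus strand: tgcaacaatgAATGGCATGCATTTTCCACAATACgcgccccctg
Slit2, 24 nt, chr5:48612206-48612229, plus strand: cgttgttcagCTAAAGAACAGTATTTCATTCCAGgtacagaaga
Pus7, 18 nt, chr5:23269152-23269169, minus strand: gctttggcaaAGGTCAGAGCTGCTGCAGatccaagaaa
Herc4, 24 nt, chr10:62766593-62766616, plus strand: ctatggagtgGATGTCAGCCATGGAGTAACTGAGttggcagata
Phf21a, 23 nt, chr2:92191766-92191788, plus strand: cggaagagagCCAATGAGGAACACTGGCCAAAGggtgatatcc
Cdk5rap2, 27 nt, chr4:69907982-69908008, minus strand: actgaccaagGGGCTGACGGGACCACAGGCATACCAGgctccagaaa
Fip1l1, 27 nt, chr5:74981071-74981097, plus strand: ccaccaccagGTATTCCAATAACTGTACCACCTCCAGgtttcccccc

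Each of these 12 lies within coding sequence, between other exons of its transcript. The Mef2d microexon is exon 8 of 12, that of Synj1 exon 13 of 32, that of Eif4g1 exon 4 of 33, and that of Picalm exon 18 of 21. All but the exon of Phf21a have a length that is a multiple of 3. Over all matched exons, 312 of 346 lay in coding sequence, 5 in untranslated regions, 19 in noncoding transcripts, and 10 were partly coding.

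Some longer microexons have a close relative of the same length in a related gene, and the next lines set such exons side by side, because some relatives with nearly the same bases had very different PSI and others like PSI.
Rapgef6, 24 nt, chr11:54485157-54485180, plus strand: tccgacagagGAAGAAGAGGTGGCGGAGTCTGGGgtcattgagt
Rapgef2, 24 nt, chr3:78886546-78886569, minus strand: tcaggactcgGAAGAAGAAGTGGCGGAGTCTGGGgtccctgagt
Cpeb4, 24 nt, chr11:31818801-31818824, plus strand: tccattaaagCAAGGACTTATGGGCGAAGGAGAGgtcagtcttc
Cpeb2, 24 nt, chr5:43660108-43660131, plus strand: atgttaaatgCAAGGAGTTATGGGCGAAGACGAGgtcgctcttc
Ank2, 24 nt, chr3:126755144-126755167, minus strand: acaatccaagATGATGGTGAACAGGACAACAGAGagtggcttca
Ank3, 24 nt, chr10:69285826-69285849, plus strand: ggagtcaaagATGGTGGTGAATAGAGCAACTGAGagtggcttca
Eif4g3, 21 nt, chr4:137651824-137651844, plus strand: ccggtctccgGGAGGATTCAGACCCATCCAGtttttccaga
Phf21b, 23 nt, chr15:84624326-84624348, minus strand: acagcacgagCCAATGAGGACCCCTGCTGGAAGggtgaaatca
Mink1, 24 nt, chr11:70422910-70422933, plus strand: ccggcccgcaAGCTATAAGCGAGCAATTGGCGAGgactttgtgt
Tnik, 24 nt, chr3:28524121-28524144, plus strand: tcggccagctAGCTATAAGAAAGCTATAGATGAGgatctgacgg
Macf1, 18 nt, chr4:123041300-123041317, minus strand: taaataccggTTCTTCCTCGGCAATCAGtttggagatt
Dst, 18 nt, chr1:34353587-34353604, plus strand: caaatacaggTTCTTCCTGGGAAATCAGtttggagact

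In DMSO the longer microexons were spread over the whole range of inclusion, and reading frame went with the level. Of the 435, 146 had a mean PSI under 10, 113 of 10 to 90, and 176 above 90, with a median of 53.5. The median of each library was 55.7, 54.6 and 50.9 for DMSO A, B and C. The 284 exons with a length that is a multiple of 3 had a median PSI of 36.0, with 97 exons under 10, 100 at 10 to 90, and 87 above 90. The 151 exons of other lengths had a median of 98.2, with 49, 13 and 89 in the same classes, so that they were mostly either skipped or included nearly always. Partial inclusion was thus found for 35.2% of the multiples of 3 and 8.61% of the others, against 5.65% of all 65882 exons measured in DMSO. The spread between the 3 DMSO libraries was small beside these ranges, with a median SD of 0.77 PSI over the 435 exons and of 3.22 over the 113 at 10 to 90, whose 95th percentile was 10.2. The medians rest on which exons are counted. The 89 exons without a match in GENCODE had a median of 0.79, whereas the 312 in coding sequence had 93.4. Within coding sequence, multiples of 3 had a median of 75.5 and other lengths 99.5, so that the distance between them was smaller there. The medians also rest on the filter. When the balance score, which asks for like reads at both junctions of an exon, was required as well, the median rose to 93.6, and the medians of the multiples of 3 and of the other lengths to 76.3 and 99.5, so that the distance between them shrank. An exon with few inclusion reads can fail this score for want of reads. That of Hmmr (23 nt), at 0.0 PSI in every library, passed it in 0 of 34, and that of Mfap2 (27 nt), near 100, in 34. The rise is thus not independent of PSI.

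**Figure D1:**
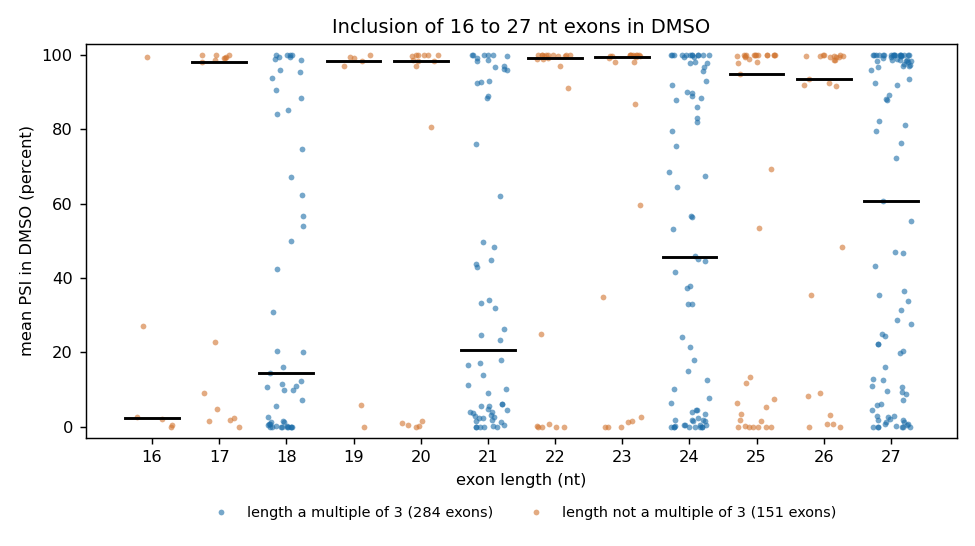
Mean PSI in DMSO (vertical axis, percent) of each measured exon, by its length in nt (horizontal axis), with multiples of 3 and other lengths in different colours and a black line at the median of each length. Exons of 18, 21, 24 and 27 nt fill the range from 0 to 100, with medians of 14.4, 20.6, 45.6 and 60.7, whereas at the other lengths most exons lie near 0 or 100.

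Among the in-frame lengths the median PSI was 14.4 at 18 nt (53 exons), 20.6 at 21 nt (62 exons), 45.6 at 24 nt (76 exons) and 60.7 at 27 nt (93 exons). Just outside, the 63 exons of 15 nt had a median of 5.5, and 40 exons of 28 nt had a median of 98.8. Just inside, the 6 exons of 16 nt had a median of 2.34. Out-of-frame lengths of 17 to 26 nt had medians of 93.7 to 99.4, whereas the short ones were mostly skipped, with medians of 0.18 at 13 nt (13 exons), 0.31 at 14 nt (9 exons) and the 2.34 at 16 nt, all below the 15-nt exons. The in-frame lengths of 18 to 27 nt thus continue a series that runs from the shorter microexons, with higher PSI at greater length. At 30 nt, past the range, the 104 exons had a median of 77.6.

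Exons that were not measured mostly lie in genes with little expression. The genes of measured exons had a median of 25.4 RPKM in DMSO (reads scaled to transcript length and library size, with replicates merged by the authors), and 357 of the 396 exons with a value lay in genes above 5 RPKM. The genes of the exons not measured had a median of 0.1 RPKM, and 439 of 640 were at 1 RPKM or less. What follows therefore describes the exons of genes that N2A cells express. Markers of neurons were mixed in DMSO. The neuronal RNA-binding proteins Elavl2, Elavl3 and Elavl4 stood at 122.96, 22.4 and 131.0 RPKM, whereas Rbfox3, known as NeuN and a marker of mature neurons, was listed at 0.0. Ptbp1, a splicing repressor that neurons replace by Ptbp2, stood at 476.4 RPKM and Ptbp2 at 88.96.

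The question asked of each compound was how many of the longer microexons it moved, and in which direction. A change was called when PSI lay 10 or more from the DMSO mean and a beta posterior built on inclusion and exclusion reads gave the direction a probability above 0.95. For the 23 compounds with 1 library there is no replicate behind the call. Each DMSO library set against the other 2 gave 4 to 7 increases and 4 to 6 decreases among the longer microexons, or 0.922% to 1.61% of those tested, which is the background of the rule without treatment.

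Activators increased the longer microexons far more often than exons in general. Over the 17 activators, 570 of 7061 tests were called increased (8.07%), against 0.819% of the tests over all exons. The shorter microexons of 3 to 15 nt had a similar share, 7.35%. Among the HDAC inhibitors, CI-994 increased 45 of 418 (10.8%, against 1.3% of all exons) and Vorinostat 39 of 410 (9.51%, against 1.26%). BRD6688 increased 41 of 431 (9.51%, against 0.878%) and BRD4884 39 of 429 (9.09%, against 0.92%). The shares for the 4 HDAC inhibitors thus lay close together.

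Among the kinase inhibitors the share was highest for A-443654, an AKT inhibitor, with 46 of 415 (11.1%, against 0.849%), and NVP-AEW-541, which targets the IGF1 receptor, increased 36 of 414 (8.7%, against 0.824%). GNF-5837, a receptor kinase inhibitor, increased 41 of 402 (10.2%, against 1.01%) and the MEK inhibitor Trametinib 40 of 424 (9.43%, against 0.713%). Crenolanib and SCH-772984 increased fewer, with 24 of 406 (5.91%, against 0.835%) and 24 of 430 (5.58%, against 0.517%).

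The drug-like activators ranged from the widest to the narrowest response. BTB12021 increased 46 of 404 (11.4%, against 0.909%), RDR00572 36 of 404 (8.91%, against 0.752%), S02045 36 of 416 (8.65%, against 0.714%) and RH01954 27 of 411 (6.57%, against 0.521%). BTB13120 increased 22 of 416 (5.29%, against 0.614%). BTBS00065 with 14 of 424 (3.3%, against 0.703%) and SEW06315 with 14 of 407 (3.44%, against 0.603%) had the lowest shares among activators, above the 1.61% that was the highest between DMSO libraries.

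Inhibitors decreased the longer microexons, and the range between compounds was wider. Over the 10 inhibitors, 407 of 4112 tests were called decreased (9.9%), against 1.4% over all exons. For exons of 3 to 15 nt the share was 10.1%. T5985871 decreased 76 of 387 (19.6%, against 2.69% of all exons) and AW00693 71 of 410 (17.3%, against 1.42%). T5758020 decreased 59 of 413 (14.3%, against 1.2%), T5635931 50 of 414 (12.1%, against 1.01%) and T5963258 34 of 411 (8.27%, against 0.823%). Increases with these 5 compounds numbered 0 to 5 and thus lay within the 4 to 7 found between DMSO libraries or under it.

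MK-1775, a WEE1 inhibitor, decreased 39 of 410 (9.51%), but its share over all exons was the highest of the 10, at 2.72%. OICR.24K.Dissimilar_18_P14 decreased 32 of 414 (7.73%, against 1.05%) and 5-azacytidine, an inhibitor of DNA methyltransferase, 23 of 417 (5.52%, against 1.04%). JFD00822 with 13 of 418 (3.11%, against 1.32%) and SPB00858 with 10 of 418 (2.39%, against 0.767%) had the lowest shares.

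BTB12021, RDR00572, S02045 and RH01954, 4 drug-like activators grouped here by the related chemical names in the study's list of compounds and called the BTB12021 group, also decreased some of the longer microexons. The counts were 11 for BTB12021 (2.72%, against 1.8% of all exons decreased), 10 for RDR00572 (2.48%, against 2.05%), 10 for S02045 (2.4%, against 1.75%) and 12 for RH01954 (2.92%, against 1.02%). With the first 3 these decreases were near the share over all exons, unlike their increases.

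**Figure D2:**
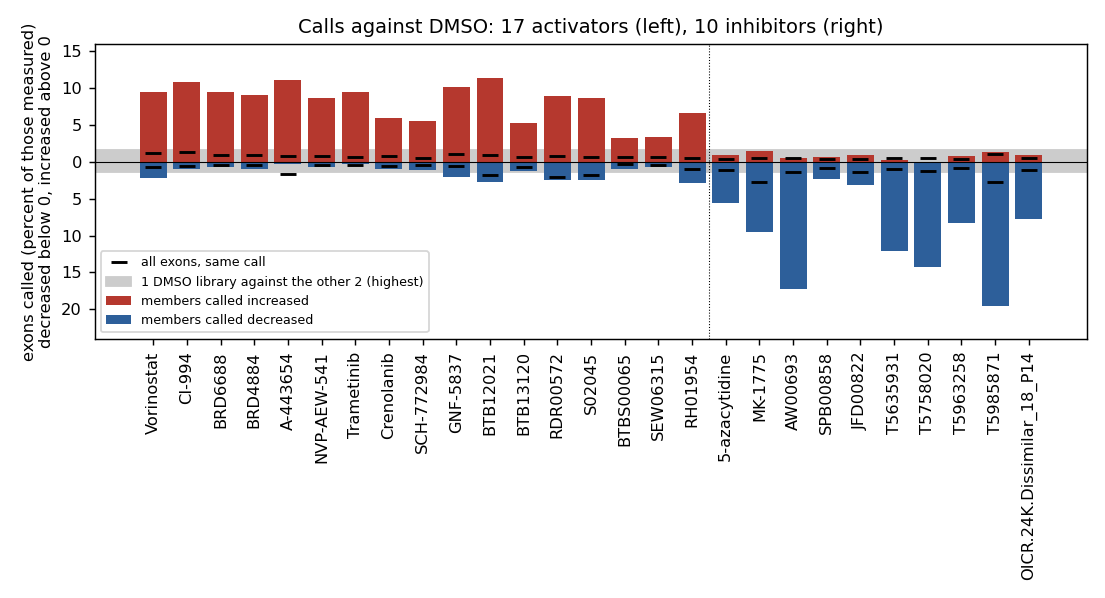
Share of the longer microexons called increased or decreased with each of the 27 compounds (vertical axis, percent of those tested, with decreases below 0), beside black dashes for the same share over all exons. The grey band marks the highest share between DMSO libraries, 1.61%. Increases reach 11.4% with BTB12021 and decreases 19.6% with T5985871.

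Most of these calls fell on exons of partial inclusion, which can move both ways. Among the 113 exons at 10 to 90 PSI in DMSO, 26.8% of activator tests were increases and 30.9% of inhibitor tests decreases, against 13.7% and 13.8% for all exons in that range. Exons of 3 to 15 nt in that range had higher shares, 29.5% and 37.7%. Over the compounds, 121 exons increased with at least 1 activator, 118 decreased with at least 1 inhibitor, and 71 did both. Of all 65882 measured exons, 2712 increased and 4571 decreased in this way. Increases with 5 or more activators were found for 52 exons, decreases with 3 or more inhibitors for 64, and 21 had both. Over all exons, such increases and decreases numbered 667 and 1023. No call with any compound was made for 262 of the 435, but only 3 of the 113 at 10 to 90 PSI were among them. Those 3 were the exons of Max (27 nt), Hira (25 nt) and Tmem176b (16 nt). Calls against the class were rarer among the longer microexons than calls with it, with decreases by an activator for 45 exons and increases by an inhibitor for 25. A DMSO library set against the other 2 already gave 4 to 7 increases and 4 to 6 decreases. Over 27 compounds, some of these exons would thus be called without any effect of treatment. For the counts of 71, 21, 262, 45 and 25 no count over all exons is given, so they describe the longer microexons alone and do not set them apart.

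In-frame lengths were more frequent among the responsive exons than among all measured exons. Every one of the 52 exons increased by 5 or more activators had a length that is a multiple of 3, and so had 57 of the 64 decreased by 3 or more inhibitors (89.1%), whereas among all 435 measured exons the share was 65.3%. Among the 113 exons at 10 to 90 PSI in DMSO it was already 88.5%, close to that of the decreased exons. Counted by test, in-frame exons increased in 11.6% of activator tests and other lengths in 1.55%, and they decreased in 13.5% and 3.03% of inhibitor tests. The gap was smaller among exons at 10 to 90 PSI, where in-frame exons increased in 28.6% of activator tests and the others in 12%, and decreased in 31.3% and 27.6% of inhibitor tests. Only 13 out-of-frame exons lie in that range, so these last shares rest on few exons.

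The same share could be set beside other lengths. Among exons of 3 to 15 nt, 81.3% of those measured and 92.1% of those increased by 5 or more activators were multiples of 3. Among exons of 28 to 50 nt these values were 39.6% and 83.0%, and over 50 nt 39.5% and 53.0%. Exons of 16 to 27 nt thus lay between the shorter microexons and the exons of 28 to 50 nt in the share measured. For decreases by 3 or more inhibitors the shares were 92.6%, 89.1%, 62.8% and 37.5% in the 4 length classes.

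**Figure D3:**
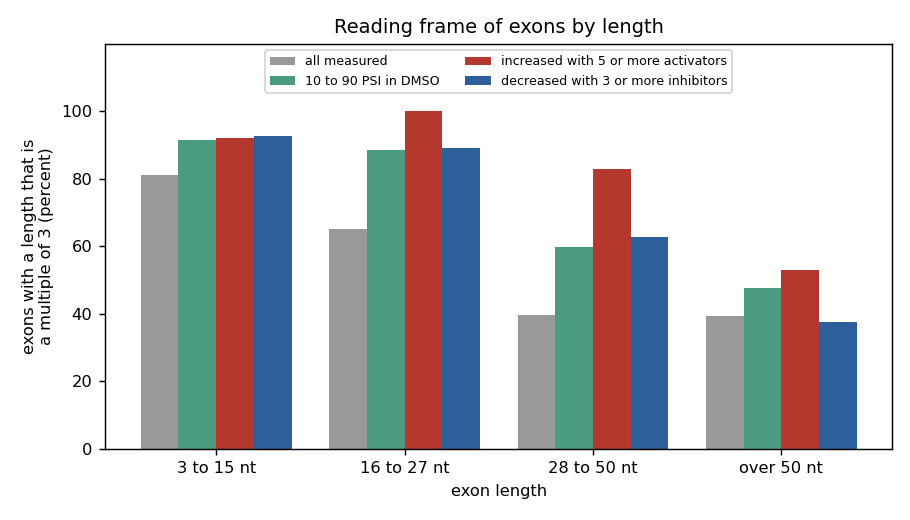
Percentage of exons whose length is a multiple of 3 (vertical axis) in 4 length classes, for the exons measured, those at 10 to 90 PSI in DMSO, those increased by 5 or more activators and those decreased by 3 or more inhibitors. For exons of 16 to 27 nt the 4 values are 65.3%, 88.5%, 100% and 89.1%.

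By length, increases by activators were called in 12% of tests at 18 nt, 12.1% at 21 nt, 14.6% at 24 nt and 8.45% at 27 nt, and decreases by inhibitors in 13.7%, 16.1%, 16.4% and 9.32%. At 15 nt, just outside the range, the shares were 11.2% and 15.4%, and at 28 nt 0.622% and 1.08%. Exons of 24 nt thus had the highest share of calls in both directions within the range. The upstream introns of the often-called exons had medians of 1887 nt for the 52 increased by 5 or more activators and 1693 nt for the 64 decreased by 3 or more inhibitors, beside 1715 nt for the 113 exons at 10 to 90 PSI and 1396 nt for all measured exons, and these medians were not tested against each other.

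The screened exon itself, that of Mef2d, a MADS-box transcription factor of neurons and muscle, was near its ceiling at the endogenous gene. Its PSI was 89.5, 88.7 and 88.7 in DMSO A, B and C (89.0 ± 0.49, SD, n = 3). Over the 21 activator libraries it ran from 89.7 to 97.1 with a median of 94.2, so that every one lay above DMSO, but none by the 10 PSI that a call requires. Over the 10 inhibitor libraries it ran from 54.6 with T5985871 to 91.3 with OICR.24K.Dissimilar_18_P14, and 5 inhibitors were called decreased. The other lowest values were 69.5 with T5758020, 69.9 with T5635931 and 70.03 with AW00693. The Mef2d gene had 30.5 RPKM in DMSO and stayed within 2-fold of it with every compound.

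Proteins of vesicle trafficking and endocytosis held several of the most responsive exons. Snx14 encodes a sorting nexin of endosomes and lysosomes, and its 27-nt exon was increased by the most activators, 15 of 17. Its PSI was 51.7, 46.9 and 42.4 in DMSO (47.0 ± 4.64, SD, n = 3), and with activators it ran from 47.8 with BTBS00065 through a median of 71.4 to 86.6 with BTB12021. Only the Vorinostat libraries (51.1 and 51.4) and BTBS00065 lay within the DMSO range. With inhibitors it ran from 18.1 with T5985871 to 46.9 with MK-1775, and 4 were called decreased.

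Synj1 encodes a phosphoinositide phosphatase needed for the recycling of synaptic vesicles. Its 24-nt exon had a PSI of 64.8, 66.5 and 62.5 in DMSO (64.6 ± 1.98, SD, n = 3) and moved in both directions, with 10 activators and 8 inhibitors called. The Vorinostat libraries gave 87.6 and 90.3, whereas AW00693 gave 18.3, T5635931 23.9 and T5985871 24.2. Every activator library, from 67.3 to 90.3, lay above DMSO, and 9 of 10 inhibitor libraries lay below it, the exception being JFD00822 at 63.0.

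Picalm, a clathrin assembly protein, was read in depth, with 1206 to 3487 reads per library, and its 24-nt exon had 30.5, 34.6 and 33.6 PSI in DMSO (32.9 ± 2.13, SD, n = 3). Activators ran from 32.2 with SEW06315 to 61.5 with A-443654 (median 48.9) and 12 were called increased. Inhibitors ran from 8.85 with T5985871 to 26.4 with OICR.24K.Dissimilar_18_P14, all below DMSO, and 6 were called. Vorinostat, at 35.1 and 37.5, was the lowest of the HDAC inhibitors, which otherwise gave 50.7 to 58.7.

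Sh3glb1, an endophilin that bends membranes, had 42.9, 46.7 and 45.7 PSI in DMSO (45.1 ± 1.96, SD, n = 3) at its 24-nt exon. The 8 HDAC inhibitor libraries gave 58.6 to 64.2 and the 10 inhibitor libraries 13.7 to 40.2, without overlap with DMSO, and 6 activators and 9 inhibitors were called. Zfyve27 (protrudin, an endoplasmic reticulum protein of neurite growth) had 46.7, 37.5 and 47.4 PSI at its 21-nt exon, with 11 activators called increased and 6 inhibitors decreased. In Zfyve27 the Vorinostat libraries disagreed, at 33.3 and 56.1, and no call was made for that compound.

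Exons of cytoskeletal proteins moved in both directions, with 16 of 31 called increased by at least 1 activator and 14 called decreased by at least 1 inhibitor. Over all 435 measured exons these counts were 121 and 118. Exons at 10 to 90 PSI in DMSO made up 12 of the 31 and 113 of the 435, and their part in these counts was not tested. The list of cytoskeletal genes was written with earlier results of these data known, so the counts do not set such genes apart. Clasp2 encodes a protein that binds growing microtubule ends and has 4 measured exons in the range. The exon shown above, of 24 nt at chr9:113787868-113787891, had 82.9, 80.9 and 75.2 PSI in DMSO (79.7 ± 3.96, SD, n = 3), with 9 of 10 inhibitors called decreased. It fell to 16.3 with T5985871, 35.5 with AW00693 and 37.9 with T5635931, whereas activators ran from 66.6 with BTBS00065 to 94.6 with BTB12021 and 3 were called increased. The other 24-nt exon of Clasp2, at chr9:113767699-113767722, started lower, at 43.4, 27.9 and 40.4 PSI (37.2 ± 8.21, SD, n = 3), and 13 activators and 5 inhibitors were called there. CI-994 brought it to 68.4 and 80.9, and T5985871 to 7.75. In 1 gene, then, the exon of higher starting PSI moved mostly down and that of lower starting PSI mostly up.

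Daam1, a formin that assembles actin, responded almost only to inhibitors at its 27-nt exon. DMSO gave 61.7, 56.1 and 64.4 PSI (60.7 ± 4.23, SD, n = 3), the inhibitors 20.7 with AW00693 to 54.2 with SPB00858, all below DMSO, and 9 were called. Activators ran from 48.9 to 83.8 around the DMSO level, and the only one called increased was A-443654. Dock4, an exchange factor for the GTPase Rac, had 81.4, 78.0 and 79.6 PSI at its 27-nt exon (79.6 ± 1.72, SD, n = 3). It fell to 22.4 with T5985871 and 41.6 with AW00693, with 8 inhibitors called decreased, and rose to 87.8 to 94.0 with the HDAC inhibitors, with 6 activators called increased.

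Kinases were represented by Mink1 and Mast2. Mink1, a kinase of the Ste20 family, had 72.9, 67.1 and 62.1 PSI at its 24-nt exon (67.4 ± 5.45, SD, n = 3), with 81.3 to 91.0 in the HDAC inhibitor libraries and 83.3 to 91.8 in the BTB12021 group, and 13 activators were called increased. T5985871, which lowered most of the exons above, left it at 71.0. Mast2, a microtubule-associated kinase, had 47.1, 48.9 and 33.3 PSI at its 21-nt exon (43.1 ± 8.49, SD, n = 3). There 14 activators were called increased, up to 72.6 with A-443654, and 6 inhibitors decreased, down to 15.4 with T5635931. An exon of Mast2 was among those by which the study chose the compounds, so these calls are not independent of that choice.

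**Figure D4:**
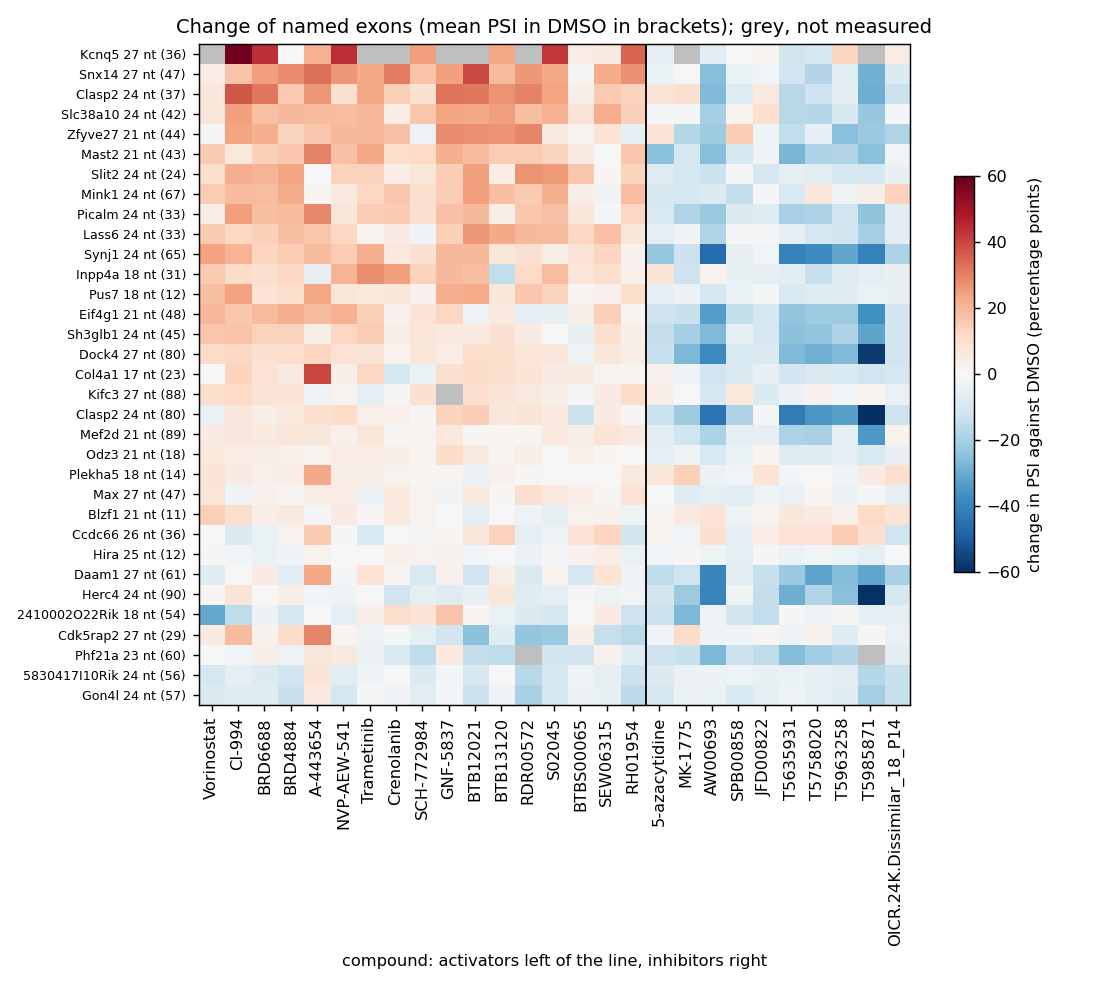
Change of PSI against the DMSO mean (colour scale, in PSI) of 33 named exons at 10 to 90 PSI in DMSO (rows) with each of 27 compounds (columns), with a line between activators and inhibitors and grey where an exon was not measured. Changes past either end of the scale take the colour of that end. Snx14 rose from 47.0 to 86.6 with BTB12021, and the 24-nt exon of Clasp2 at 79.7 in DMSO fell to 16.3 with T5985871.

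Secreted and membrane proteins included Slit2, Slc38a10 and Kcnq5. The exon of Slit2, a secreted guidance cue for axons, had 25.3, 21.3 and 25.8 PSI in DMSO (24.1 ± 2.47, SD, n = 3) on 337 to 1644 reads. It rose to 34.5 to 49.5 with the HDAC inhibitors and 37.7 to 51.0 with the BTB12021 group, while A-443654, at 24.5, and SEW06315, at 25.1, left it within the DMSO range, and 12 activators were called increased. Slc38a10, of an amino acid transporter family, had 37.1, 40.6 and 47.0 PSI at its 24-nt exon (41.6 ± 5.02, SD, n = 3) with 14 activators called increased and 4 inhibitors decreased. Kcnq5, a voltage-gated potassium channel subunit, was measured in 2 of 3 DMSO libraries, at 42.8 and 28.2 PSI on 79 and 62 reads. Its 27-nt exon was called increased with 8 of the 11 activators and decreased with 0 of the 8 inhibitors in which it was measured, on 22 to 79 reads per library, but the BRD4884 libraries gave 59.8 and 12.1, so its values carry little precision.

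The ceramide synthase gene Cers6, listed as Lass6 in the files, had 37.5, 37.0 and 24.6 PSI at its 24-nt exon (33.04 ± 7.33, SD, n = 3) with 13 activators called increased and a lowest value of 13.3 with T5985871. Inpp4a, a phosphoinositide phosphatase, had 42.4, 26.9 and 23.4 PSI at its 18-nt exon, with 10 activators called increased. The DMSO libraries of both exons differed by more than 10 PSI, which is the size of change a call asks for. Herc4, a ubiquitin ligase, started near its ceiling, with 86.1, 92.8 and 91.0 PSI (89.97 ± 3.48, SD, n = 3), and its exon was called decreased with 9 of 10 inhibitors, down to 30.9 with T5985871 and 49.7 with AW00693.

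Among proteins of RNA and translation, Eif4g1, the scaffold of the cap-binding complex, had the deepest and most regular record. On 592 to 3592 reads its 21-nt exon had 47.3, 47.5 and 50.2 PSI in DMSO (48.4 ± 1.6, SD, n = 3). All 10 inhibitors were called decreased, from 11.5 with T5985871 to 37.7 with JFD00822. The HDAC inhibitors gave 64.2 to 71.0 in all 8 libraries and 9 activators were called increased, but none in the BTB12021 group, with 42.3, 43.9, 45.5 and 49.7 PSI for RDR00572, S02045, BTB12021 and RH01954. Pus7, a pseudouridine synthase, started at 14.9, 11.7 and 10.2 PSI (12.3 ± 2.41, SD, n = 3) and rose to 20.9 to 39.2 with the HDAC inhibitors and 22.9 to 34.5 with the BTB12021 group, with 9 activators called increased. The gene itself was lower with Vorinostat, at a log2 ratio of -1.89, and exceeded a 2-fold difference with 3 compounds, and the part of gene level in the exon's PSI was not tested.

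A few exons went against the class of the compound or followed only some groups. Phf21a, a reader of unmethylated histone H3, has a 23-nt exon that shifts the frame, with 58.4, 60.1 and 60.4 PSI in DMSO (59.6 ± 1.07, SD, n = 3). It fell with 8 of 9 inhibitors, to 32.7 with AW00693, and also with 5 activators, to 44.2 with BTB13120 and SCH-772984, and was increased by none. The 27-nt exon of Cdk5rap2, a centrosomal protein, had 32.3, 25.98 and 28.1 PSI in DMSO (28.8 ± 3.22, SD, n = 3). In the BTB12021 group it fell to 4.21, 5.62, 6.5 and 12.4, while A-443654 gave 58.3 and CI-994 49.2 and 46.7, so that activators moved it both ways, 3 up and 6 down. The exon of 2410002O22Rik (18 nt) had 52.9, 53.9 and 55.6 PSI in DMSO, fell to 20.5 and 26.7 in the Vorinostat libraries and 27.1 with MK-1775, and rose to 71.3 with GNF-5837.

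The exon of Gon4l, a transcriptional regulator, was called decreased with 6 activators and 2 inhibitors, from 59.5, 57.5 and 53.0 PSI in DMSO to 37.4 with RDR00572 and 36.4 with T5985871. Its 24 bases are identical to those of an exon of 5830417I10Rik, with 59.2, 55.7 and 54.2 PSI in DMSO, and the reads of the pair may not be told apart, so both values are uncertain. The 21-nt exon of Blzf1, a Golgi matrix protein, had 10.6, 9.61 and 13.3 PSI in DMSO and was high with Vorinostat (24.5 and 26.8) and with T5985871 (23.04), but low in the BTB12021 group (5.88 to 7.9). Plekha5 (18 nt) had 15.9, 14.02 and 13.3 PSI in DMSO and its highest values with A-443654 (37.3) and the inhibitor MK-1775 (28.9). Exoc1, a subunit of the exocyst, had 4.22, 8.41 and 6.0 PSI at 21 nt and reached 24.0 with Crenolanib and 23.8 with MK-1775. The 26-nt exon of Ccdc66, a microtubule-binding protein, spread from 22.3 to 46.2 PSI within DMSO, nearly as wide as over all compounds (21.1 to 51.4).

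Other exons hardly moved. The 27-nt exon of Max, the partner of MYC, had 48.7, 46.2 and 45.7 PSI in DMSO (46.8 ± 1.63, SD, n = 3) and between 39.4 and 57.5 in every other library, on 652 to 1729 reads. The exon of Hira, a histone chaperone, had 9.43, 11.7 and 14.4 PSI in DMSO and 6.18 to 15.8 elsewhere. Tenm3, a teneurin listed as Odz3, had 17.8, 19.1 and 16.5 PSI at its 21-nt exon, 18.1 to 28.8 with activators and 8.63 to 19.04 with inhibitors, and the only call was the rise with GNF-5837. Mfap2, a microfibril protein with a 27-nt exon, was at 100 in all 3 DMSO libraries and no lower than 99.3 with any compound.

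The HDAC inhibitors are the only compounds with 2 libraries, so that here the spread between libraries entered the test. The log2 odds of inclusion were compared with limma over the 11 libraries of DMSO and the 4 HDAC inhibitors, for the 57013 exons that passed in all 11, of which 362 are longer microexons. At an adjusted p under 0.05 limma called 14 of 362 for Vorinostat, with log2 odds 10 up and 4 down (3.87%, against 4.09% of all exons). For CI-994 it called 5, with 4 up and 1 down (1.38%, against 2.04%). These shares are near the background and are no result about the longer microexons, whereas the directions and sizes below are given exon by exon. For BRD4884 and BRD6688 limma called 0 each (0.00351% and 0.0789% of all exons). At an unadjusted p under 0.05 it called 54 of 362 for BRD4884 (14.9%, against 8.95% of all exons), 46 of them upward. For BRD6688 it called 68 (18.8%, against 10.3%), 57 of them upward. A call on log odds need not be a change of splicing. The 23-nt exon of Hmmr was among the 3 smallest adjusted p for Vorinostat and for CI-994, yet had 0.0 PSI in every library. Its reads were 640, 509 and 366 in DMSO, 53 and 78 with Vorinostat, and 86 and 92 with CI-994. Without inclusion reads the log odds follow the number of reads alone. In simulated data this fit also called unchanged exons and missed most changes of moderate size. The calls were therefore also limited to changes of at least 10 PSI, a limit chosen after the data were seen. That left 9 for Vorinostat (0.239% of all exons), 2 for CI-994 (0.146%) and 6 for the mean of the 4 HDAC inhibitors against DMSO (0.163%, or 11 and 2.29% without the limit).

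The 6 exons that changed in the mean of the 4 HDAC inhibitors all rose. They included those of Eif4g1 (+19.4 PSI, log2 odds difference 1.16 ± 0.23, SE, limma adjusted p = 0.0454), Slit2 (+19.1 PSI, 1.25 ± 0.24, limma adjusted p = 0.0402) and Pus7 (+15.4 PSI, 1.44 ± 0.26, limma adjusted p = 0.0366), described above, and Mink1 (+18.8 PSI, limma adjusted p = 0.0385). On the scale of PSI itself, limma gave adjusted p = 0.00117 for Eif4g1, 0.0019 for Slit2, 0.0202 for Pus7 and 0.0454 for Mink1. Another was the 18-nt exon of Ppp6r3, a phosphatase subunit (+11.5 PSI, limma adjusted p = 0.0382), for which limma on the scale of PSI gave adjusted p = 0.0608.

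With Vorinostat alone the largest change was the fall of 2410002O22Rik by 30.5 PSI (log2 odds difference -1.94 ± 0.36, SE, limma adjusted p = 0.0277). Synj1 rose by 24.4 PSI (limma adjusted p = 0.0435), Pus7 by 17.8 (limma adjusted p = 0.0428), Blzf1 by 14.5 (limma adjusted p = 0.0481) and the 16-nt exon of Srrm4 by 13.4 from 0.42 PSI (limma adjusted p = 0.0127). The Srrm4 exon started near 0, on 56 to 141 reads in DMSO, and had 56 and 115 reads with Vorinostat. It passed the balance score in 10 of 34 libraries. The remaining 4 were Mapkbp1, Ptpra, Nckap1 and Kifc3, with rises of 10.7 to 12.8 PSI. With CI-994 the 2 exons were those of Pus7 (+24.3 PSI, limma adjusted p = 0.0329) and Kifc3, a kinesin (+11.7 PSI, limma adjusted p = 0.0172). These counts depend on single libraries. Without the limit of 10 PSI, limma called 14 exons for Vorinostat, 5 for CI-994 and 11 for the mean of the 4 on all libraries. On the same terms, without DMSO B limma called 0 exons for each of them, and without DMSO C it called 46, 32 and 38. Without Vorinostat A it called 1 for Vorinostat, and without CI-994 A or B it called 0 for CI-994. Without any other single library it called 3 to 6 for Vorinostat, and over all libraries other than DMSO C it called 0 to 4 for CI-994 and 0 to 5 for the mean.

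The HDAC inhibitors were also compared with each other, in 6 pairs. At an adjusted p under 0.05 limma found 0 of 362 exons different in each pair, and at an unadjusted p under 0.05 it found 16 to 53. The most were for Vorinostat against BRD6688 (14.6%, against 16.1% of all exons). In the pairs between, the shares were 7.73% to 12.4%, against 7.45% to 10.5% of all exons. The fewest were for BRD4884 against BRD6688 (4.42%, against 4.83%). BRD4884 and BRD6688 were used at the same concentration, and over 426 exons the difference BRD6688 minus BRD4884 had a median of 0.0 PSI with the 5th and 95th percentiles at -5.59 and 4.93. Over the 110 exons at 10 to 90 PSI the percentiles were -8.39 and 7.97, with 8 exons apart by 10 PSI or more. A missed threshold with 2 libraries does not show that the compounds act alike.

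The BTB12021 group was read for exons that all 4 of its compounds moved by at least 10 PSI in the same direction, a list chosen after the values were seen. There were 16 such exons, 13 higher and 3 lower. The 3 lower ones were Gon4l and the 27-nt exons of Fip1l1, a subunit of the mRNA cleavage and polyadenylation machinery, and Ahi1, a protein of the cilium. Fip1l1 had 76.0, 79.3 and 73.8 PSI in DMSO (76.3 ± 2.79, SD, n = 3) and 51.1, 45.7, 47.0 and 61.1 with BTB12021, RDR00572, S02045 and RH01954, whereas the HDAC inhibitor libraries gave 75.1 to 90.7. Ahi1 had 94.2, 92.4 and 94.3 PSI in DMSO and 77.8 to 82.7 with the 4 compounds, against 92.3 to 98.6 with the HDAC inhibitors. In both exons all 4 compounds lay below every HDAC inhibitor library, but the difference between compound groups was not tested.

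Among the 13 that rose, Snx14 reached 70.3 to 86.6 PSI, and the 21-nt exon of Vti1a, a SNARE protein of vesicle fusion, went from 33.2, 28.4 and 34.4 in DMSO to 49.2 to 66.4. The 24-nt exon of Ckap5, a microtubule polymerase, had 44.0, 45.3 and 44.9 PSI in DMSO (44.7 ± 0.67, SD, n = 3) and 56.2 to 66.4 with the 4 compounds, while the HDAC inhibitor libraries, at 39.2 to 47.2, stayed around DMSO. Inhibitors lowered it to 11.6 with T5985871 and 12.7 with AW00693. Eif4g1 showed the reverse pattern among activators, being raised by the HDAC inhibitors and not by the BTB12021 group.

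Exons of equal length in related genes could be compared base by base. Among measured exons, 23 pairs matched at 70% or more of their positions, 10 with both exons above 90 PSI in DMSO, and 4 with DMSO values more than 50 PSI apart. The 24-nt exons of Rapgef6 and Rapgef2, exchange factors for the GTPase Rap, share 23 of 24 bases, and Rapgef6 had 0.0, 3.95 and 1.16 PSI in DMSO and Rapgef2 98.0, 97.8 and 98.1. Those of Cpeb4 and Cpeb2, which bind the 3′ ends of mRNAs and control their translation, share 21 of 24 bases. Cpeb4 had 40.3, 35.4 and 38.0 PSI and Cpeb2 91.7, 97.0 and 98.8, and inhibitors lowered both, to 16.9 and 77.7. The ankyrins Ank2 and Ank3 share 19 of 24 bases and had 99.4 and 1.82 PSI on average. The fourth pair was Csnk1g1 and Csnk1g3, casein kinases, with 0.0 and 89.8 PSI. The low exon of these pairs failed the balance score in most DMSO libraries, passing in 0 for Rapgef6 and Csnk1g1 and in 1 for Ank3, so that under this score only the pair of Cpeb4 and Cpeb2 would remain. At so low a PSI few inclusion reads are left to compare between the junctions, so the score cannot decide whether these low values are right.

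Other relatives were nearer to each other. Mink1 and Tnik, both Ste20-family kinases, share 18 of 24 bases, had 67.4 and 46.0 PSI in DMSO and were called increased by 13 and 9 activators. Macf1 and Dst, which link actin to microtubules, share 16 of 18 bases, had 95.4 and 88.6 PSI and were decreased by 8 and 3 inhibitors, to 69.8 and 61.4. Eif4g3 shares 16 of 21 bases with Eif4g1 but had 1.49 ± 0.19 PSI (SD, n = 3) and never exceeded 6.85. Phf21b shares 17 of 23 bases with Phf21a and stayed between 90.7 and 100, while Phf21a fell to 32.7. Fry and Fryl, large proteins of cell shape, share 14 of 18 bases and had 15.9 ± 4.65 and 62.5 ± 9.11 PSI (SD, n = 3). Fryl ranged from 0.0 with T5985871 to 91.6 with RDR00572, the widest range of any measured exon, but on as few as 16 reads.

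**Figure D5:**
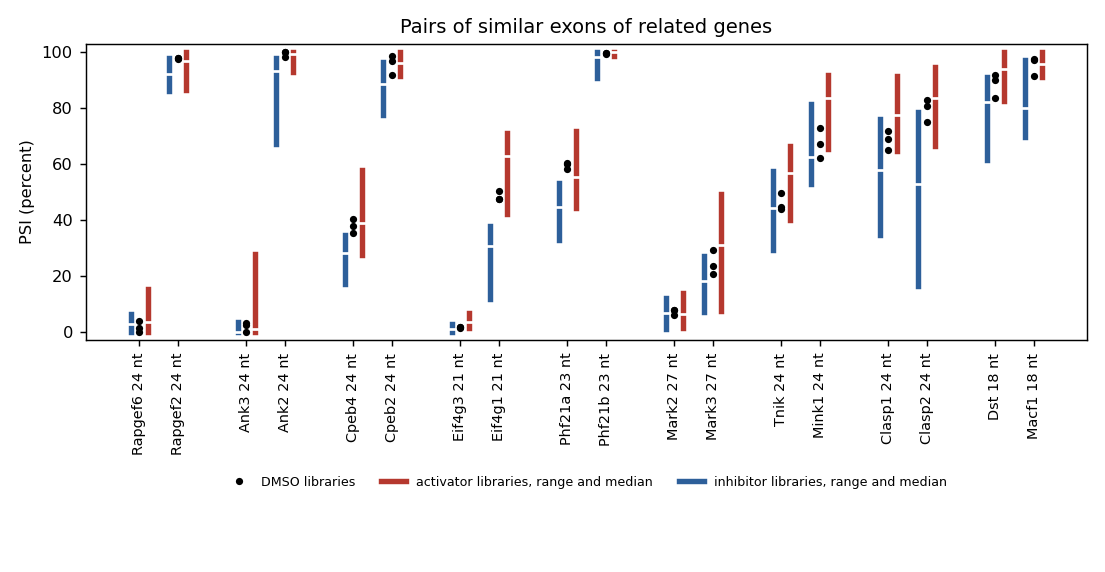
PSI (vertical axis, percent) of 9 pairs of exons of equal length in related genes, with points for the 3 DMSO libraries, a red bar for the range over activator libraries and a blue bar for the range over inhibitor libraries. Rapgef6 and Rapgef2 stay at opposite ends with all compounds, Rapgef6 at or below 15.4 and Rapgef2 at or above 86.1.

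The genes were also read by lists of function, which were written with earlier results of these data known and are given as counts only. The 26 exons in genes of vesicle trafficking and endocytosis increased in 20.8% of activator tests and decreased in 19.6% of inhibitor tests, with 9 exons increased by 5 or more activators. The 31 exons of cytoskeleton and motor genes stood at 14.9% and 23%, with 12 exons decreased by 3 or more inhibitors. The 18 exons of adhesion and axon guidance genes stood at 15.8% and 21.4%, against 8.07% and 9.9% for all 435.

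For the 34 exons of kinases, phosphatases and GTPase regulators the shares were 13.8% and 9.42%. The 14 exons of transcription and chromatin genes had 6.52% and 16.9%, among them Mef2d and Phf21a. The 14 of RNA processing and translation had 10.5% and 16.4%, and the 6 of channels and transporters 27.2% and 7.84%. The 292 exons in none of these lists had 4.66% and 6.38%, still above the 0.819% and 1.4% of all exons. Exons at 10 to 90 PSI made up 39.9% of those in a list and 19.2% of the others, and their part in these differences was not tested.

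Regulators of microexons differed between compounds at the level of RPKM, where no spread can be given because replicates were merged. Srrm4, the main activator, had 10.4 RPKM in DMSO, 19.6 at most with an activator and 3.34 with T5985871 (log2 ratio -1.51), and its highest ratio was 0.88 with CI-994. Srrm3 had 18.5 RPKM in DMSO and 6.56 with T5985871 (log2 ratio -1.43). Rbm38, an RNA-binding protein of the p53 response, rose from 40.6 to 271.03 RPKM with T5985871, and Elavl4, a neuronal RNA-binding protein, fell from 131.0 to 34.3. Srsf1 was lowest with CI-994 (log2 ratio -1.51) and Ptbp2 with Vorinostat (-1.86). AW00693, next to T5985871 in the number of decreases, had log2 ratios of -0.76 for Srrm4, -1.27 for Srrm3 and 1.96 for Rbm38. The part of these regulators in the changes of PSI was not tested.

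Between 33489970 and 75978445 reads over exon junctions per library stood behind these values, and 402 to 475 longer microexons passed in a library. The median number of reads per exon ran from 126 to 260.5 between libraries, so that a change of 10 PSI lies near the limit of what an exon of few reads can show in a single library.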

How the data were processed

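PSI values, in percent, were deposited by the authors for each of 34 libraries of N2A cells, aligned to mm9 with vast-tools, each with a quality string that holds a coverage score, a balance score and the inclusion and exclusion reads after correction for mappability. RPKM values were deposited by the authors with replicates merged per condition, so that they carry no spread. The submitters' processing notes also name Salmon 0.10.2 and edgeR. Another deposited file, with PSI per condition and the authors' own comparisons, was not used, and 0 value columns lacked a sample.

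Exons of 16 to 27 nt were taken from all exon events. Groups follow the labels, and the classes of activator and inhibitor follow the study. A compound was compared with the DMSO mean by the rule of 10 PSI and a posterior probability above 0.95. For that probability a beta distribution was built on the reads of each library and averaged over the libraries of a group. The HDAC inhibitors were tested with limma 3.58.1 (R 4.3.3) on log2((inclusion + 0.5)/(exclusion + 0.5)) with Benjamini-Hochberg adjustment over all 57013 exons, and all 11 libraries shared one estimate of the spread. The mean of the 4 HDAC inhibitors and the limit of 10 PSI in this test were added after the data were seen. Scripts used Python 3.11.15, numpy 2.4.6, pandas 2.3.3 and scipy 1.17.1, and were tested on simulated data, in which limma on log odds also called unchanged exons, all by less than 10 PSI, and missed most moderate changes. Log2 ratios of RPKM carry a pseudocount of 0.5.

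The exons named are those of Mef2d, Clasp2, Snx14, Pus7, Kcnq5, Synj1 and Herc4. To these were added, among exons passing coverage and balance in DMSO and in at least 24 compounds, the 8 called up and the 8 called down most often, the 4 most often called against each class, the 4 of smallest range at 10 to 90 PSI, the 3 largest changes with each of CI-994, RDR00572, Trametinib, AW00693 and T5985871, and the 3 smallest adjusted p of each HDAC comparison. Fip1l1, Ahi1, Ckap5, Vti1a, Tmem176b, Gnas and the exons in pairs of related genes lie outside this rule and were named after their values were seen. The values of 2 exons that the rule names are not reported here. The exons and lists were chosen with earlier results of these data known. All comparisons share the 3 DMSO libraries, so their results are not independent of each other. Alternatives tried were the balance score, SOK and OK alone, a threshold of 15 PSI, a pseudocount of 2 reads, PSI as deposited, a replicate block, and leaving out each library.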

Additional observations from a re-analysis of the deposited data

Results flagged for a closer look

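The 24-nt exon of Gnas, the stimulatory G protein subunit, at chr2:174153609-174153632 (mm9) moved in opposite directions with 2 groups of activators. It lies in a noncoding transcript of the annotation, and had 55.3, 51.4 and 52.7 PSI in DMSO (53.1 ± 2.01, SD, n = 3) on 158 to 1254 reads per library. With BTB12021, RDR00572, S02045 and RH01954 it had 69.8, 77.5, 73.7 and 57.4 PSI, a mean of 16.5 above DMSO. With Trametinib, Crenolanib, SCH-772984 and GNF-5837 it had 37.3, 35.3, 39.1 and 41.0 PSI, a mean change of -15.0. The groups thus differed by 31.4 PSI, and since each compound has 1 library the difference was not tested. The exon stands here because every library of the first group lay above DMSO and every library of the second below it.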

How the results depend on the processing

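Under the alternatives run, 0 of 468 recomputed log2 odds of exons past the HDAC test and 0 of 12 log2 ratios of regulators changed direction. The other results are counts and medians, which were compared by size only. With a threshold of 15 PSI, increases were 22 in place of 45 for CI-994, 18 in place of 40 for Trametinib, and 292 in place of 570 over all activators. Decreases over all inhibitors were 248 in place of 407, and calls between DMSO libraries 11 in place of 31. When the balance score was required, the median PSI in DMSO was 93.6 in place of 53.5, 76.3 in place of 36.0 for multiples of 3 and 99.5 in place of 98.2 for other lengths, and with SOK and OK alone it was 46.9 and, for multiples of 3, 33.2. Leaving out 1 DMSO library gave 54.8 to 58.5, 36.1 to 40.2 and 98.2 to 98.3, and 559 to 585 increases over activators, 407 to 445 decreases over inhibitors and 40 to 50 increases for CI-994. Of 1376 recomputed counts of compounds per named exon, 1306 stayed within their limits. Of 468 recomputed results of exons past the HDAC test, 193 stayed past it and 275 did not.

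In the HDAC test by limma, the count for Vorinostat, 14, was 35 with a pseudocount of 2 reads and 9 with the balance score. For CI-994, 5 became 11 on PSI as deposited, 19 with a pseudocount of 2 and 2 with the balance score. BRD4884 and BRD6688, at 0, each had 5 on PSI as deposited, and the mean of the 4, at 11, had 33 with a pseudocount of 2. Limited to 10 PSI, Vorinostat went from 9 to 15 with a pseudocount of 2, CI-994 from 2 to 8 on PSI as deposited and 13 with a pseudocount of 2, BRD4884 and BRD6688 from 0 to 4 each on PSI as deposited, and the mean from 6 to 10 and 16. Leaving out 1 library gave 0 to 46 for Vorinostat, 0 to 32 for CI-994, 0 to 1 for BRD4884 and 0 to 38 for the mean, and, limited to 10 PSI, 0 to 23, 0 to 16 and 0 to 15 for Vorinostat, CI-994 and the mean. A compound left with 1 library was assumed to vary like the other groups. The causes were not tested.

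The letters A and B do not pair the libraries, since the correlation of A minus B between groups ran from -0.021 to 0.007. With the replicate block the counts were 32 for Vorinostat, 12 for CI-994 and 21 for the mean, and, limited to 10 PSI, 6 for CI-994. Single compounds with 1 library have no replicate check, and exons with few reads limit what their PSI can show.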
